A study of Gallus gallus with 6 samples.

Results

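Chicken macrophages grown from peripheral blood were compared 4 h after exposure to whole E. coli and 4 h after exposure to purified lipopolysaccharide (LPS), on 1 spotted cDNA array with no replicate. The comparison covers all genes that a probe table names, 2248 of 2253 with a value on this array. The genes given by name below were picked from these, most of them for the size of their ratio. The series holds 6 arrays of these cells, which the labels call macrophages from peripheral blood lymphocytes, at 1, 2, 4 and 8 h or without a stimulus. On the array described here, channel 1 held RNA of cells given whole E. coli of the laboratory strain XL10, and channel 2 held RNA of cells given LPS from S. typh. For times after 2 h the stimulus was taken off at 2 h, so both samples of 4 h had a shared period without stimulus. Neither the number of birds nor whether both samples came from the same birds is given in the sources used here.

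Macrophages sense LPS, the glycolipid of the outer membrane of Gram-negative bacteria, through toll-like receptor 4 and its partner MD-2, with LPS-binding protein handing the lipid over. Whole bacteria carry the same glycolipid and also lipoproteins, flagellin, nucleic acids and a particle to engulf, which reach other toll-like receptors and the phagosome. Both routes lead to the transcription factor NF-kB, which drives genes of cytokines and chemokines and of its own inhibitors, while engulfed bacteria are broken down in lysosomes by cathepsins.

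Each value is a log2 ratio after the array's median was set to 0, so that 1 is 2-fold, and each ± is an SD between the spots that carry the gene. It holds spotting error on 1 array and, where several clones carry a gene, also differences between those clones. No test was possible. The sources used here give neither the numerator of the ratios nor the dyes. CCL20, IL8L1 and IL1B, which bacterial products induce in macrophages, had 6.0, 3.77 and 3.38 on the array of E. coli 1 h (channel 1) and unstimulated cells, and -6.46, -5.86 and -5.10 on that of unstimulated cells (channel 1) and LPS 1 h. If these genes were induced by both stimuli, deposited ratios are channel 1 over channel 2, and positive ratios at 4 h mean more RNA after E. coli than after LPS. This direction is likely, not settled: with the other numerator every sign turns, and genes called positive here would be higher after LPS.

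Of the 2248 genes, 661 (29.4%) were past 2-fold, 397 of them positive (17.7%) and 264 negative (11.7%). Past 4-fold were 107 positive (4.76%) and 32 negative genes (1.42%). The array was noisier than others of the series: spots of the same clone had a median SD of 0.60, against 0.47 on the array of E. coli 8 h and LPS 8 h and 0.21 and 0.20 on those of 1 h. Ratios also moved with spot brightness, taken from the LPS 2 h array. The median was 1.18 in the dimmest of 10 equal bins of spots and -0.76 in the brightest. Positive genes made up 41.8% and negative genes 4.48% of the dimmest 25%, against 7.62% and 23.6% of the brightest 25%. Ratios further differed by place on the array, with medians from -0.93 to 1.01 over 48 runs of spots. Values with the brightness trend removed therefore stand beside the main ones for most of the lists described below. Because the LPS 2 h array holds cells given LPS, brightness there also depends on a gene's RNA level after LPS. Removal of the trend is thus not a purely technical correction. Counts with the trend removed are to be read beside 11.4% positive and 10% negative of all named genes.

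**Figure D1:**
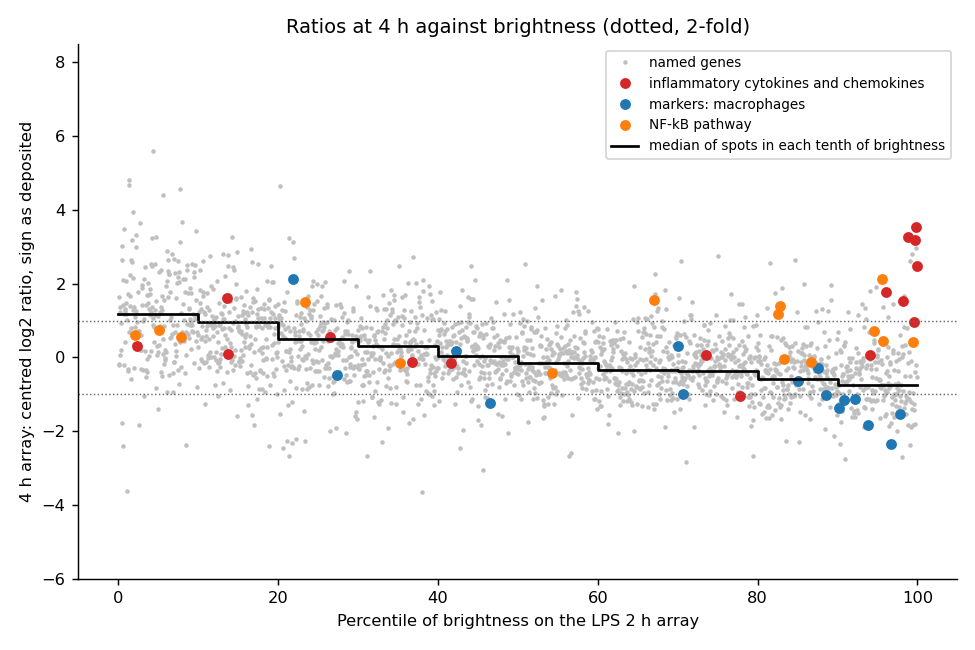
Centred log2 ratio at 4 h (vertical axis) of each named gene against its percentile of brightness on the LPS 2 h array (horizontal axis), with 3 gene lists coloured and the median of spots in each of 10 brightness bins as a black line. The line falls from 1.18 to -0.76, and at its bright end CCL20, IL8L1 and IL1B lie above 3 while most macrophage markers lie below it.

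Inflammatory cytokines and chemokines lay on the positive side. Of 16 measured members 7 were past 2-fold positive and 1 negative, against 17.7% and 11.7% of all named genes, with a median of 0.76 against 0.00, and with the trend removed the count was 7 and 0. Over all genes, removal of the trend left 11.4% positive and 10% negative. The 7 were then not the same genes, since the dim XCL1 had 0.81 and the bright CCL4 1.77. CCL20, a chemokine that draws lymphocytes and dendritic cells, had spots of 2.08, 4.26 and 4.25 and a mean of 3.53 ± 1.26. IL8L1, a chicken relative of CXCL8 that draws heterophils, had 2.21, 2.07, 3.09, 3.61, 4.15 and 4.49 over its 6 spots and a mean of 3.27 ± 1.00. IL1B, a cytokine of fever and the acute phase, had 1.38, 1.98, 2.79, 4.33, 4.14 and 4.54, with a mean of 3.19 ± 1.34. Every spot of these genes was past 2-fold on the positive side, although spots of 1 gene differed by over 2 units. Part of this lay between clones, with clone means of 2.46 and 4.08 for IL8L1 and 2.05 and 4.34 for IL1B.

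The chemokines of the CC family and IL6 followed. LOC395551, which RefSeq lists with the synonym CCL4, had 2.25, 2.53 and 2.69 and a mean of 2.49 ± 0.22, and CCL4 itself had 0.97 ± 0.46. These near relatives can hybridise to each other's clones, so their separate values are uncertain. IL6, which drives the acute phase response, had 1.52, 1.98 and 1.84, with a mean of 1.78 ± 0.24. CCL5, which attracts T cells and monocytes, had 1.27, 1.55 and 1.75 and a mean of 1.52 ± 0.24, and the lymphocyte chemokine XCL1 had 1.60 ± 0.39. In IL6, CCL5 and LOC395551 the spots lay close together and all were past 2-fold. The negative member was LITAF, a regulator of TNF transcription in mammals, at -1.05 ± 0.43. IL18 (0.06 ± 0.85), IL15 (0.32 ± 0.91), IL16 (-0.12 ± 1.08), TGFB3 (0.08 ± 0.94), CCL1 (0.07 ± 0.35), TNFSF13B (-0.15 ± 0.11) and CXCL13L2 (0.55 ± 0.46) were within 2-fold. Among genes of the brightest 25%, 6 of 9 list members were positive and 1 negative, against 43 and 133 of 564 genes in all.

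Genes of the NF-kB pathway leaned to the positive side as well, with 5 of 15 past 2-fold positive, none negative and a median of 0.62. Over all named genes 17.7% were positive and 11.7% negative. Once the brightness trend was removed, 8 of the 15 were positive and none negative, against 11.4% and 10% of all named genes. NFKBIZ, a nuclear inhibitor-like protein that helps NF-kB switch on IL6, had 1.65, 1.96, 2.76, 1.84, 2.12 and 2.38, with a mean of 2.12 ± 0.40 and every spot past 2-fold. CFLAR, which blocks caspase-8, had 0.29, 1.73 and 2.63, and NKIRAS2, a brake on the breakdown of the NF-kB inhibitor, 1.51 ± 1.21 over 5 spots. IKBKB, a kinase that releases NF-kB, had 1.40 ± 1.66, and the inhibitor NFKBIE 1.17 ± 1.05. For IKBKB 1 spot set the mean, with values of 0.33, 0.56 and 3.31. The feedback inhibitors NFKBIA (0.72 ± 0.44) and TNFAIP3 (0.45 ± 0.38) were within 2-fold, but both are bright and had 1.42 and 1.16 with the trend removed. The factor REL was at -0.11 ± 0.37 and the adaptor TRAF2 at -0.41 ± 0.74.

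Receptors for these and other ligands were on both sides. Of 27 cytokine and chemokine receptors 2 were past 2-fold positive and 5 negative, against 17.7% and 11.7% of all named genes. Their median was -0.29. The positive members were TNFRSF6B, a decoy for TNF family ligands, at 1.84 ± 1.16, and IL6ST, the signalling chain of the IL6 receptor, with 1.84, 1.34 and 1.91. CSF2RA, the receptor chain for GM-CSF, had -1.71, -1.85 and -1.52 and a mean of -1.69 ± 0.16. CSF1R, the receptor through which macrophages are kept alive, had -1.12 ± 0.98, with 1 of 5 spots above 0. CMKLR1, a chemerin receptor, had -1.29 ± 0.53 and the interferon receptor chain IFNAR2 -1.13 ± 0.34. IL6ST is dim, and with the trend removed it had 0.61, while CSF2RA had -1.25 and CSF1R -0.78, within 2-fold. The list then had 1 positive and 4 negative members. Among the 4 was IL1R1 at -1.97, which had -1.60 ± 3.26 before.

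Pathogen sensors and their adaptors were on both sides, 5 of 24 positive and 4 negative, against 17.7% and 11.7% of all named genes. The list's median was 0.01. LBP, the protein that carries LPS to its receptor, had spots of -2.70, -2.80, -1.69, -2.30, -1.98 and -2.17 and a mean of -2.27 ± 0.42, all of them past 2-fold. LY96, known as MD-2 and the part of the LPS receptor that binds the lipid, had -0.74, -1.71 and -0.95 (mean -1.14 ± 0.51), and LY86, its relative known as MD-1, -1.16 ± 0.80. TRAF3, an adaptor of toll-like receptor signalling, had -1.17 ± 0.30. On the positive side stood TLR15, a toll-like receptor of birds and reptiles that mammals lack, with 0.88, 2.18, 1.24, 0.94, 1.46 and 1.14 (mean 1.31 ± 0.48). The RNA sensor IFIH1 had 1.77 ± 0.81, TLR3, a receptor for double-stranded RNA, 1.16 ± 0.23, and the DNA sensor CGAS 1.03 ± 0.07. The last 3 are dim, and with the trend removed they had 0.83, 0.06 and -0.07, against 1.85 for TLR15 and -1.78 for LBP. LY96 (-0.91), LY86 (-0.52) and TRAF3 (-0.47) then fell within 2-fold. This left TLR15 as the 1 positive member and 3 negative ones, LBP, SIGIRR (-1.14) and MYD88 (-1.10).

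Immediate early genes, which cells switch on within minutes of a signal, had 5 of 15 positive and 1 negative, with a median of 0.02. Over all named genes 17.7% were positive and 11.7% negative. The kinase PIM3 had 3.32, 2.94 and 2.02 and a mean of 2.76 ± 0.67. The factor KLF2 had 1.65, 1.58 and 1.92 (1.72 ± 0.18), the AP-1 subunit FOS 1.20, 1.59 and 1.13 (1.31 ± 0.25), and KLF10 1.05 ± 0.59. BTG1, which slows cell division, had -1.15 ± 0.20. Corrected for brightness, 3 were positive and none negative, with a median of 0.67 and 13 of 15 above 0, and PIM3 had 3.13, KLF2 2.12, FOS 1.06, KLF10 0.84 and BTG1 -0.45. The interferon response list had 4 of 29 positive and 2 negative with a median of 0.02. SOCS3, which blocks signalling from the IL6 receptor, led it with 1.57, 2.09 and 2.34 (2.00 ± 0.39), followed by IFIH1, by IRF7, the factor that amplifies type I interferon, at 1.47 ± 1.17, and by GVINP1 at 1.17 ± 0.36. IFI30, a lysosomal reductase used in antigen processing, had -1.40 ± 0.24 and SOCS5 -1.28 ± 0.33. The corrected counts were 2 positive, SOCS3 at 2.53 and IRF7 at 1.22, and 1 negative, SOCS5, with a median of 0.25, while IFIH1 had 0.83, GVINP1 0.56 and IFI30 -0.70.

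**Figure D2:**
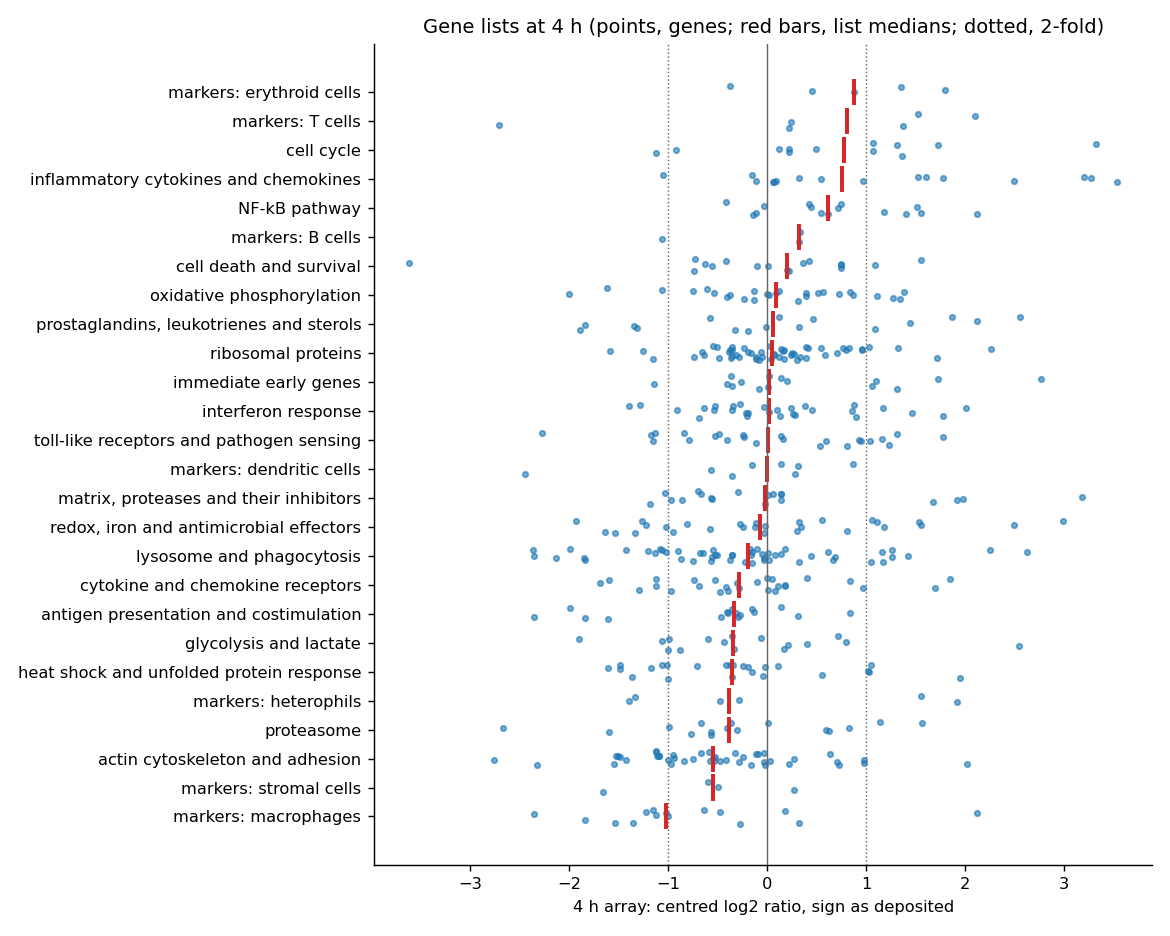
Centred log2 ratio at 4 h (horizontal axis, sign as deposited) of each gene in the 26 lists with at least 3 members, sorted by median; points are genes, red bars list medians and dotted lines 2-fold. Macrophage markers lie lowest, with a median of -1.02, erythroid and T cell markers highest, at 0.88 and 0.80, and cytokines and NF-kB genes have medians of 0.76 and 0.62.

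Lysosomal enzymes gave the negative counterpart. Of 52 genes for lysosomes and phagocytosis 12 were past 2-fold negative and 8 positive, against 11.7% and 17.7% of all named genes. The negative ones were mostly enzymes, and 6 of 8 cathepsins were past 2-fold negative, with a median of -1.64. CTSS, a cathepsin that trims the invariant chain for antigen presentation, had -2.61, -2.42 and -2.02 (-2.35 ± 0.30). The aspartic protease CTSD had -2.55, -2.28 and -1.56 (-2.13 ± 0.51), CTSZ -2.07, -1.77 and -1.70 (-1.85 ± 0.19) and CTSB -2.53, -1.95 and -1.05 (-1.84 ± 0.75). CTSC, which activates serine proteases, had -1.43 ± 0.74 and CTSA -1.02 ± 0.60 over 9 spots each. PSAP, the precursor of the saposins that help degrade sphingolipids, had -2.36 ± 1.01 over 12 spots, from -3.49 to 0.50, with 1 spot above 0. LGMN, an asparagine-specific protease, had -1.99 ± 0.51 over 12 spots, from -2.79 to -1.0.

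Other lysosomal enzymes past 2-fold negative were the glucuronidase GUSB (-1.20 ± 0.69), the peptidase TPP1 (-1.13 ± 0.98) and the ceramidase ASAH1 (-1.08 ± 1.76). The lysosomal membrane protein LAMP1 had -1.06 ± 0.80. Subunits of the proton pump that acidifies lysosomes did not share this: of 12 measured, none was past 2-fold negative and 2 were positive, ATP6V0D2 at 1.16 ± 0.48 and ATP6V1D at 1.05 ± 1.94, with a median of -0.03. The largest positive members of the list were CLN8, a membrane protein of the endoplasmic reticulum that moves lysosomal enzymes, and MFGE8, a bridge to dying cells. CLN8 had 1.79, 2.21, 1.56, 3.12, 3.39 and 3.65 (2.62 ± 0.88) and MFGE8 1.30, 2.52 and 2.94 (2.25 ± 0.85). Removal of the trend left a cathepsin median of -0.95, and the list then had 6 genes of each sign past 2-fold. Among the brightest 25%, 10 of 25 list members were negative, against 133 of 564 genes in all.

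Antigen presentation had 4 of 16 genes negative and none positive, with a median of -0.33: CTSS and LGMN, already described, CD74 and BF2. Over all named genes 11.7% were negative. Of the 16 genes 11 are in the brightest 25%, where the 4 lie and the list's median was -0.35, against 23.6% negative and a median of -0.41 for all genes that bright. CD74, the invariant chain of MHC class II, had -2.15, -1.95 and -1.41 (-1.84 ± 0.38). BF2, a chicken MHC class I chain, had -1.60 ± 0.41 over 9 spots, none above -1.08. The class I and class II chains of chicken are close in sequence to their paralogues, and their clones may read more than 1 gene. Corrected for brightness, BF2 had -0.99 and CD74 -1.04, and the list had 1 positive and 4 negative members. The 4 were then not the same genes, since BF2 fell within 2-fold and the dim CD276 had -1.11.

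Macrophage markers lay lower still. Of 15 measured, 9 were past 2-fold negative and 1 positive, with a median of -1.02, against 11.7% negative over all named genes. Apart from CTSS and CTSB these were CYBB, the membrane subunit of the phagocyte oxidase, with -0.48, -2.17, -2.03, -1.86, -1.5 and -1.20 (-1.54 ± 0.63), the complement chains C1QA (-1.0 ± 1.41, with 1 of 9 spots at -4.46), C1QB (-1.36 ± 0.40) and C1QC (-1.02 ± 0.53), TREM2, a lipid receptor, LY86 and CSF1R. TREM2 had 5 of 6 spots between -2.66 and -1.59 and 1 at 3.62 (mean -1.23 ± 2.42). The factor SPI1 (-0.64 ± 1.00), LYZ (-0.27 ± 0.43), the Fc receptor chain FCER1G (0.18 ± 0.40) and the scavenger receptor MARCO (0.32 ± 0.42) were within 2-fold, and HPGDS, a prostaglandin D synthase, was at 2.12 ± 1.75 over 2 spots. These markers are bright, and 7 of the 9 in the brightest 25% were negative with a median of -1.16, against 133 of 564 and -0.41 for all genes that bright. After removal of the trend 4 of 15 were negative and the median was -0.73. In bulk RNA, fewer cells of a type and less of the RNA in each cell cannot be told apart.

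Markers of other cells were few, and their counts stand beside 17.7% positive and 11.7% negative of all named genes. T cell markers had 5 of 6 above 0 and a median of 0.80, and erythroid markers 4 of 5 and a median of 0.88, the highest list medians at 4 h after centring, on the opposite side from the macrophage markers. With the trend removed the NF-kB (1.01), cytokine (0.78) and immediate early (0.67) medians lay above that of T cell markers. T cell and erythroid markers then had medians of 0.61 and 1.22. Their intensity on the LPS 2 h array ran from 0.134 to 5.40 over 6 T cell markers, with a median of 0.532, against 0.202 to 5.26 and a median of 1.99 for macrophage markers and 0.509 for all named genes. None of the 6 T cell markers was at 0. At 4 h, 3 of them were positive, CD28 (2.10 ± 2.49), CTLA4 (1.52 ± 1.12) and ICOS (1.37 ± 1.06). For CD28 a single spot set the mean, with values of 0.60, 4.97 and 0.73. CD3D, a chain of the T cell receptor complex, had spots of -3.23 and -2.17 (-2.70 ± 0.75) and is the bright one. With the trend removed CTLA4 had 0.72 and ICOS 0.92, and the T cell list had 1 positive member, CD28 at 1.87, and 1 negative, CD3D at -1.94. Of 5 erythroid markers 2 were positive, HBBA, a haemoglobin chain, at 1.79 ± 1.15 and CA2 at 1.35 ± 0.92. Both erythroid medians above are the value of ALAS1 (0.88 ± 1.47), whose 2 clones differed in sign, at 2.01 and -0.26. Neither median is therefore read as a shift of erythroid cells. With the trend removed 3 of 5 erythroid markers were positive, HBBA (1.64), CA2 (1.79) and ALAS1 (1.22), while HBA1 had -0.47 and RHAG -0.65. The 3 B cell markers held 1 negative, the kinase LYN, which myeloid cells also express, at -1.06 ± 0.23. LYN had -0.60 with the trend removed, within 2-fold. Heterophil markers had 2 of 6 on each side, MMP9 and LYGL against CTSG (-1.39 ± 0.64) and S100A12 (-1.34 ± 0.33). With the trend removed 1 was left on each side, MMP9 at 2.01 and CTSG at -1.07. Of 8 dendritic cell markers the endocytic receptor LY75 was negative, with -2.42, -2.57 and -2.33. Of 4 stromal markers FAP was negative at -1.66 ± 0.27, and both thrombocyte markers, GP1BB and TUBB1, were within 2-fold at -0.61 ± 0.59 and -0.46 ± 1.87. The part of cell makeup in the lists above was not tested.

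Genes for redox balance, iron and antimicrobial effectors split, with 7 of 28 on each side and a median of -0.07. The shares over all named genes were 17.7% positive and 11.7% negative. GCLM, the regulatory subunit of the enzyme that starts glutathione synthesis, had 2.59, 3.0 and 3.36 (2.98 ± 0.39), and its catalytic partner GCLC 1.12, 0.97 and 1.22 (1.10 ± 0.13). The endosomal iron reductase STEAP3 had 2.18 and 2.80, the mitochondrial arginase ARG2 1.54 ± 0.67, and the mitochondrial antioxidants SOD2 and PRDX3 1.18 ± 0.64 and 1.06 ± 0.76. The goose-type lysozyme LYGL had 1.55 ± 1.09. On the other side PRDX1, a cytosolic peroxidase, had -2.40, -2.03 and -1.38 (-1.93 ± 0.52), the ferritin heavy chain FTH1 -1.26 ± 0.45, the iron exporter SLC40A1 -1.22 ± 0.40 and the glutathione transferase GSTA3 -1.02 ± 0.34, beside CYBB and S100A12. With the trend removed GCLM had 3.79 and PRDX1 -1.34, while calls were lost for GCLC (0.27), PRDX3 (0.12), LYGL (0.63), ARG2 (0.82), FTH1 (-0.46), SLC40A1 (-0.77), GSTA3 (-0.43) and S100A12 (-0.66), and the list had 4 positive and 3 negative members.

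Lipid mediator and sterol genes had 5 of 16 positive and 4 negative, against 17.7% and 11.7% of all named genes. PTGS2, the inducible cyclooxygenase, had 1.17, 1.37 and 1.78 (1.44 ± 0.31), and CH25H, which makes the antiviral sterol 25-hydroxycholesterol, 1.02, 1.30 and 0.93 (1.09 ± 0.20). The phospholipase PLA2G15 had 1.96, 1.95 and 1.70, and the fatty acid carrier FABP4 0.32, 6.45 and 0.90, where a single spot set the mean of 2.55. HMGCS1, an enzyme early in cholesterol synthesis, had -2.24, -2.05 and -1.21 (-1.84 ± 0.55) and PLIN2, a lipid droplet coat protein, -1.34 ± 0.29. Among secreted matrix genes 4 of 19 were positive and 2 negative, near the same shares over all named genes. The gelatinase MMP9 had 1.66, 1.17, 1.99, 1.82, 2.31 and 2.56 (1.92 ± 0.49) and the matrix cytokine SPP1 1.97 ± 0.75 over 9 spots, none under 1.21. MMP27 had 1.77 and 4.59 and TIMP4 1.68 ± 0.07, both dim, while TIMP3 had -1.03 ± 0.27 and the protease inhibitor SERPINB2 -1.18 ± 0.76. Removal of the trend left the lipid list at 5 positive and 4 negative, with a median of 0.27. The 4 were then not the same genes. PLIN2 (-0.90) and ACSL1 (-0.60) fell within 2-fold, and the dim ALOX5AP (-1.59) and ALOX5 came in. HMGCS1 (-1.06) stayed negative, as did LTA4H at -1.11, the lowest member before at -1.89 ± 1.54. The matrix list was left at 3 and 1, with TIMP4 at 0.50, TIMP3 at -0.31 and SERPINB2 at -0.50.

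Of 44 actin genes 13 were past 2-fold negative and 1 positive, with a median of -0.54, against 11.7% negative over all named genes. Of 28 in the brightest 25%, 10 were negative with a median of -0.76, against 23.6% and -0.41 for all genes that bright. ARPC5, a subunit of the Arp2/3 complex that branches actin filaments, had the lowest value, with -2.93, -4.20, -2.26, -2.12 and -1.48 over its 5 spots (-2.76 ± 1.03). ACTR2 had -1.78, -1.43 and -1.36 and ACTR3 -1.94, -1.45 and -1.13, and 7 of the 8 subunits of the complex in the list were below 0, with a median of -0.90, while ARPC3 had 0.98. ACTR3B, a paralogue of ACTR3 outside the list, had 1.36, 2.14 and 2.34. The GTPases RAC1 (-1.48 ± 0.81), CDC42 (-1.11 ± 0.48) and RHOC (-1.0 ± 0.88), the actins ACTB (-1.12 ± 0.62) and ACTG1 (-1.09 ± 0.17), the bundling protein LCP1 (-1.42 ± 1.56), the severing protein GSN (-1.09 ± 0.68), the membrane-binding protein ANXA1 (-1.55 ± 0.40) and the tetraspanin CD81 (-1.12 ± 0.29) were negative as well. MYO1F was at -2.32 ± 2.33 over 2 spots. The positive member was ITGA4, an integrin chain, with 1.55, 2.33 and 2.15. Most of these genes are bright, and with the trend removed 4 were negative and 2 positive, with a median of -0.27. The median of the Arp2/3 subunits was then -0.46. ACTR2 (-0.79) and ACTR3 (-0.77) fell within 2-fold, while ARPC5 had -2.14.

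Counts of the next lists stand beside 17.7% positive and 11.7% negative of all named genes. Chaperones had 8 of 24 negative and 4 positive, with a median of -0.35. Of the 10 chaperones in the brightest 25%, 6 were negative, against 23.6% of all genes that bright. Negative members included the endoplasmic reticulum chaperones HSPA5 (-1.49 ± 0.43) and HSP90B1 (-1.37 ± 0.47), the mitochondrial HSPA9 (-1.61 ± 0.51) and HSPD1 (-1.48 ± 1.07) and the cytosolic HSPA8 (-1.17 ± 0.68). With the trend removed 4 were negative and 2 positive, and HSP90B1 (-0.72) and HSPA8 (-0.46) lost their calls. Among 12 cell cycle genes 6 were positive and 1 negative, with a median of 0.78, but with the trend removed the counts were 1 and 1, and the largest ratio, that of CENPE (3.32 ± 3.98), rests on a spot of 7.90. Ribosomal protein genes had 4 of 54 positive and 3 negative, with a median of 0.05. With the trend removed 9 were positive and 1 negative, with a median of 0.38. Glycolysis genes had 1 of 16 positive and 3 negative, and the positive one was SLC16A1, a lactate transporter, with 2.07, 2.57 and 2.98. The corrected counts were 2 and 1 for glycolysis and 5 and 1 for oxidative phosphorylation. Oxidative phosphorylation had 4 of 27 positive and 3 negative, with the complex I subunits NDUFS8 (-2.0 ± 0.43) and NDUFB4 (-1.61 ± 0.34) lowest. The proteasome list had 2 of 16 on each side, where PSMC3IP, taken in by its name, is no subunit, and cell death genes 2 of 17 positive and 1 negative, the inflammatory caspase CASP1 with spots of -4.59 and -2.64, a dim gene.

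Apart from any list, among genes with at least 3 spots 101 had every spot past 2-fold on the positive side and 59 on the negative side, and the means of 82 and 33 of them stayed past 2-fold with the trend removed. Of the 15 largest positive ones 11 are in the dimmest 25%. BLM, a DNA helicase, had 1.81, 9.93 and 2.73 and RPP25L 10.77, 1.25 and 1.93, and a single spot set each mean, whereas TRIQK had 4.89, 4.49 and 4.64 (4.67 ± 0.20). TMOD1, a cap of actin filaments, had 4.41 ± 2.01, TBL2 3.68 ± 0.83, FPGS, which adds glutamate to folate, 3.65 ± 1.40, and THAP4 3.43 ± 1.70. CD200L, a relative of the inhibitory surface protein CD200, had 1.85, 3.26 and 4.65, and INHBA, which makes activin A, 1.64, 2.22 and 5.49. CCDC53 (2.86 ± 0.52) and TMEM164 (2.80 ± 0.87) closed the 15, with CCL20, IL8L1, IL1B and GCLM among them. The last 4 are the bright ones.

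The 15 largest negative genes had 2 in the dimmest 25% and mostly narrow spots. BAG5, a co-chaperone of HSP70, had -1.89, -1.78 and -4.36, and PSMD13, a proteasome lid subunit, -2.76, -2.38 and -2.86. TMEM123 had -2.34, -2.46 and -2.25, LOC422654, a gene with no description here, -2.28, -2.46 and -2.18, and SLC26A5, an anion transporter family member, -2.30, -2.04 and -1.84. MS4A4A, a surface protein of macrophages in mammals, had -1.72, -1.44 and -2.85. PRR5, a partner of the kinase mTOR, had -2.36 ± 1.16 and ZNF207 -1.92 ± 0.75. The others, ARPC5, LY75, CTSS, LBP, CTSD, NDUFS8 and PRDX1, stand above.

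**Figure D3:**
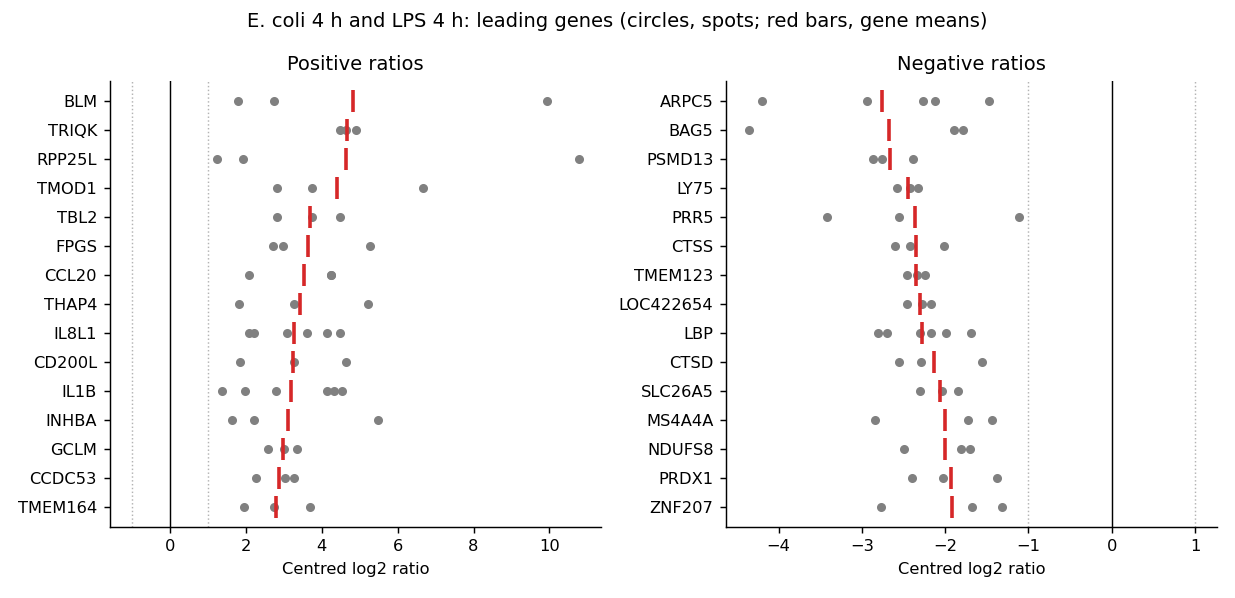
Centred log2 ratios (horizontal axes) of every spot (circles) and gene means (red bars) for the 15 largest positive and 15 largest negative genes of the 4 h array; dotted lines mark 2-fold. BLM and RPP25L each have 1 spot near 10, while the spots of TRIQK and TMEM123 lie close together.

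Genes past 2-fold with both stimuli at 1 h were examined next, since the arrays of 1 h share no RNA with the 4 h array by their labels. On the array of E. coli 1 h and unstimulated cells, 14.7% of genes were past 2-fold positive, and on that of unstimulated cells and LPS 1 h 7.37% were past 2-fold negative. Both held for 63 genes, 62 of them read at 4 h. At 4 h 43 of the 62 (69.4%) were past 2-fold positive and 2 negative, with a median of 1.43, against 17.7% positive over all named genes. Among the 30 in the brightest 25%, 20 were positive, against 7.62% of all genes that bright. With the trend removed on each array, 44 of 75 such genes (58.7%) were positive at 4 h, against 11.4%. Genes positive with E. coli 1 h but not past 2-fold negative with LPS 1 h were positive at 4 h in 51.1% of cases, and genes negative with LPS 1 h alone in 21.6%, but with the trend removed these shares were 24.5% and 25.8%. The arrays share the brightness trend, and genes are not independent of each other. Both arrays of 1 h also hold unstimulated cells by their labels. If that RNA was the same, an error in it would enter both arrays, so they may not be independent.

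Besides the cytokines and NF-kB genes, the 43 held G0S2, an inhibitor of fat breakdown, with 3.18, 2.21 and 2.58 (2.66 ± 0.49), the RING finger protein RSPRY1 with 2.56, 2.86 and 2.97 (2.79 ± 0.21), the RNA-binding LSM5 (2.61 ± 0.65), the stress kinase PLK3 (1.90 ± 0.36), the rhomboid protease RHBDD1 (1.74 ± 0.60) and the G protein regulator RGS1 (1.36 ± 0.54). At 1 h, RHBDD1 had 2.49 on the E. coli array and -5.04 on the LPS array, and RSPRY1 2.27 and -4.43. The exceptions on the negative side were ACSL1, which activates fatty acids, at -1.32 ± 0.65 over 12 spots, and TNIP3, an inhibitor of NF-kB signalling, at -1.02 ± 0.15 over 2. ACSL1 had 1.60 on the E. coli 1 h array and -3.62 on the LPS 1 h array, and TNIP3 1.36 and -3.37. Some genes far from 0 on the LPS 1 h array were within 2-fold at 4 h, among them IL18, at -3.12 and 0.06, and BIRC2, a ubiquitin ligase of TNF signalling, at -2.54 and 0.42. Both are bright, and with the trend removed IL18 had 0.75 and BIRC2 1.22 at 4 h.

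**Figure D4:**
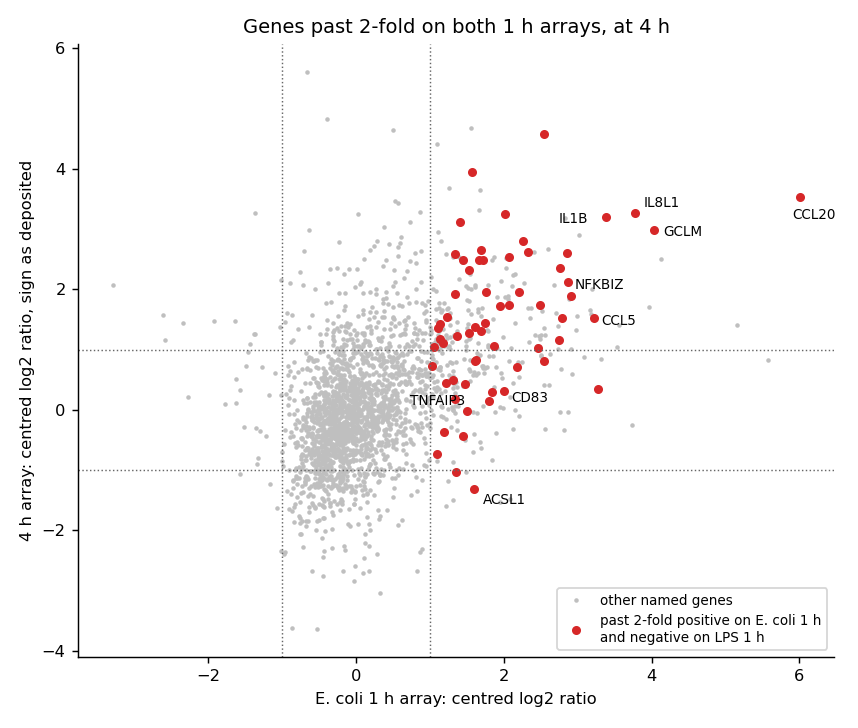
Centred log2 ratio at 4 h (vertical axis) against that on the array of E. coli 1 h and unstimulated cells (horizontal axis), with the genes past 2-fold on both arrays of 1 h in red and dotted lines at 2-fold. Of the 62 red genes read at 4 h, 43 lie above the upper line and 2 below the lower one.

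The same contrast was read at 8 h, on another array that shares no RNA with that of 4 h by the labels. At 8 h 15% of 2220 genes were past 2-fold positive and 12.9% negative. Over 2216 genes the ratios at both times had a Pearson correlation of 0.40 and a Spearman correlation of 0.44 across genes, and 0.32 and 0.36 with the trend removed, as a description only. Past 2-fold at both times were 161 genes on the positive side, 101 on the negative side and 32 with opposite signs. Of the 82 positive genes with every spot past 2-fold, 44 of 78 read at 8 h were positive there and 1 negative. Of the 33 negative ones, 19 were negative at 8 h and none positive. Of the 82 positive genes 40 are in the dimmest 25%. The 8 h array had a brightness trend too, with medians of 0.67 in the dimmest bin of spots and -0.43 in the brightest. Of genes positive at 4 h, 41.9% were positive at 8 h, or 30.5% with the trend removed on each array. Of genes negative at 4 h, 38.8% were negative at 8 h, or 39.6%. All named genes then had 11.1% positive and 14.5% negative.

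The macrophage markers stood on the same side at 8 h, with 9 of 15 negative and a median of -1.05, or 7 negative, 1 positive and a median of -0.82 with the trend of that array removed. CYBB had -2.26, C1QC -1.97, LY86 -1.93, TREM2 -1.93, CTSS -1.66, C1QA -1.63, CSF1R -1.18, SPI1 -1.05 and CTSB -1.04. The cathepsin median was -0.94, PSAP had -2.25 and CD3D -4.01. The T cell list had a median of -0.18, with 2 of 6 above 0, and the erythroid list 0.39, with 3 of 5. With the trend removed these medians were -0.08 and -0.25. The cytokine list had 7 of 16 positive and none negative, or 8 and 2 with the trend removed. Counts of the macrophage and cytokine lists with the trend removed stand beside 11.1% positive and 14.5% negative of all named genes. The others stand beside 15% and 12.9%. LOC395551 had 3.19, TGFB3 1.77, CCL20 1.73, XCL1 1.67, CCL5 1.59, CCL4 1.06 and IL6 1.03, while IL1B had 0.65 and IL8L1 0.00. The NF-kB list had none positive and 1 negative, the kinase CHUK at -1.76, with NFKBIZ at -0.43, and PIM3 and GCLM, both near 3 at 4 h, had -0.78 and -0.62. Of the 60 genes past 2-fold on both arrays of 1 h that were read at 8 h, 13 (21.7%) were positive and 6 (10%) negative. The shares over all named genes were 15% and 12.9%. With the trend removed on each array, 12 of 73 such genes (16.4%) were positive and 7 negative, against 11.1% and 14.5%. Whether ratios at 4 h and 8 h differ beyond array error was not tested, as each time has 1 array.

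**Figure D5:**
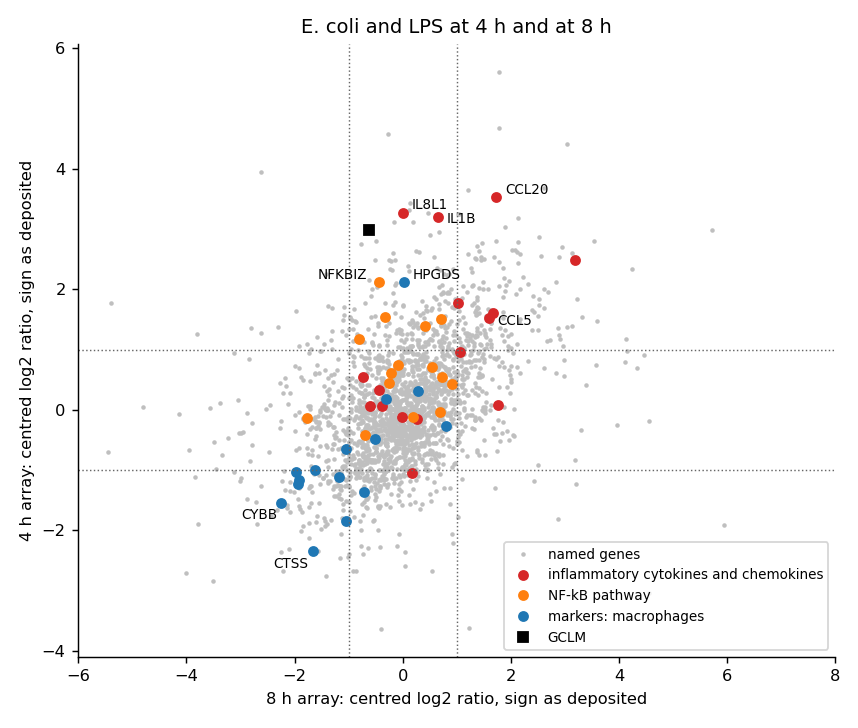
Centred log2 ratio at 4 h (vertical axis) against that at 8 h (horizontal axis, 2 genes outside its range) for all named genes, with 3 lists and GCLM marked and dotted lines at 2-fold. Macrophage markers gather in the lower left, whereas IL8L1, IL1B, NFKBIZ and GCLM are past 2-fold at 4 h and within it at 8 h. The brightness trend is left in on both axes.

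A further array set E. coli 2 h (channel 1) beside E. coli 4 h (channel 2) and so shares the E. coli 4 h label with the 4 h array, for which reason its values only stand beside those above. CCL4 had -2.89 there, LOC395551 -2.41, CCL5 -2.35, IL8L1 -1.80, MMP9 -1.64, GCLM -1.17, IL1B -0.83, CCL20 -0.55, NFKBIZ -0.30 and IL6 -0.31. Negative values would mean more RNA at 4 h than at 2 h on the likely reading. They are relative to the array's median, which was 0.49 as deposited. Ratios moved with brightness here too, with a median of 0.69 in the dimmest bin of spots and -0.38 in the brightest. With this trend removed CCL4 had -2.49, CCL5 -1.95, IL8L1 -1.40, GCLM -0.76 and IL1B -0.42, but CCL20 had -0.15 and IL6 0.08. No direction is therefore read for CCL20, NFKBIZ and IL6. With the trend left in, CTSS had 0.48, CTSD 0.90, PSAP 0.53, CYBB 0.65 and C1QC 1.41, and LBP 0.40.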

How the data were processed

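Per the labels, 5 arrays compared 2 RNA samples each and 1 held a single sample. The deposited table gives 14718 spots per array, and the 4 h column has 14130 values. These deposited values were read as log2 ratios. Base 2 is assumed, and the sources used here state neither normalization, numerator nor dyes. The deposited median was -0.11. The LPS 2 h values are a deposited intensity, 204 of them below 0, and served as a measure of brightness. The table held 0 columns of other samples.

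Ratios were centred on each array's median, spots averaged per clone (4906 clones, 3 spots each) and clones per gene. A probe table with an annotation of 2007 named 9066 spots with 1 gene, 3 with several (not named) and left 5649 unnamed. Of 2255 gene identifiers 2228 matched a RefSeq table (GRCg7b), used for names only. The brightness trend was removed by lowess with a span of 0.3. Tools were statsmodels 0.14.6, pandas 2.3.3 and numpy 2.4.6 under Python 3.11.15, with figures by matplotlib 3.10.9, and the steps were tested on simulated data. A single array allows no test, and precision is limited by that number.

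Genes were named by a rule. It took the 15 largest of each sign with at least 3 spots, every spot past 2-fold and a mean past 2-fold with the trend removed. It added members past 2-fold with spots of 1 sign in 9 signalling and effector lists, and up to 4 of largest size in each other list. Further members of the cytokine, NF-kB, macrophage, lysosome, actin, chaperone and matrix lists, ARPC3, and genes past 2-fold on both arrays of 1 h were named after their values were seen. Lists (27) and members were chosen with earlier results of these data known. Alternatives were no centring, the trend, dim clones, spot rules, the logarithm, the spread, the threshold and, added after seeing the data, the place on the array.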

Additional observations from a re-analysis of the deposited data

Results flagged for a closer look

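Of the 32 genes past 2-fold with opposite signs at 4 h and 8 h, 8 had at least 3 spots at each time, all of 1 sign on that array, and these stand out for a sign that turned between the times. The difference was not tested, since each time has 1 array. TLR15, the toll-like receptor of birds and reptiles, had 1.31 ± 0.48 at 4 h and -1.12 ± 0.32 at 8 h. CH25H, the sterol hydroxylase, had 1.09 ± 0.20 at 4 h and -1.78 ± 0.30 at 8 h. CLOCK, a circadian transcription factor, had 2.26 ± 0.94 and -1.42 ± 0.33. EIF2AK4, a kinase that senses a lack of amino acids, had -1.82 ± 1.63 and 2.87 ± 1.26, the only one of the 8 that was negative at 4 h. The secretory GTPase RAB27A had 1.71 ± 1.21 and -1.09 ± 1.53, and FKBP3 1.28 ± 1.98 and -2.63 ± 2.00. SLAIN2 had 1.20 ± 0.31 and -1.58 ± 1.54, and TM4SF19 1.24 ± 0.69 and -1.05 ± 0.84. For FKBP3 a single spot set the mean at 4 h, with values of 0.18, 0.09 and 3.57. Across 10 settings of the processing, FKBP3 stayed past 2-fold at 4 h in 6, CH25H and SLAIN2 in 7 and TM4SF19 in 9. TLR15 and RAB27A did in all 10, and CLOCK and EIF2AK4 in the 9 that gave them a value. These 2 genes are dim, with LPS 2 h intensities of 0.083 and 0.045 against a median of 0.509 for all named genes. They had no value once dim clones were left out.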

How the results depend on the processing

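No paired analysis was possible because each comparison has 1 array. The 397 positive genes became 257 with the brightness trend removed, 177 without the dimmest 25% of clones, 226 with runs of spots centred and the trend removed together (added after seeing the data) and 107 at 4-fold. The 264 negative genes became 446 if the deposited values are natural logarithms, 135 with the 4 h array scaled to the spread of the 8 h array, 32 at 4-fold and 493 with only the first of 3 stretches of the array, also added after seeing the data. Genes positive at both 4 h and 8 h, 161 in all, became 76 with the trend removed, 52 without dim clones, 87 with at least 3 spots of 1 sign and 69 with runs centred and the trend removed. The 101 negative at both became 56 with 3 spots of 1 sign and 59 with the scaled array, and the 32 of opposite sign 8 and 19 with those settings and 17 without dim clones. With the trend removed the sign turned for CASP9 (-0.052), CGAS (-0.075) and VPS16 (-0.031), and with runs centred as well for CASP9 (-0.10), CGAS (-0.55), TLR3 (-0.17), HSP90AB1 (-0.039) and B3GNTL1 (-0.050). The causes were not tested. Of 198 named genes past 2-fold, 195 kept their sign and 124 stayed past 2-fold with the trend removed, and 193 and 113 with runs centred as well. Of 26 list medians 22 kept their sign with the trend removed, 20 as deposited, with runs centred, and with both runs and trend treated, and 19 with the median of all spots. Signal over background on the 4 h array itself is unknown, since its intensities were not used here.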
